A study of Mus musculus with 6 samples.

Results

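The interleukin-6 family genes Il6, Lif, Osm and Il6st were followed in RAW264.7 cells (a line of mouse cells that behave as macrophages), as the 4 genes of that name among the 10780 genes of the deposited expression table. The 4 were taken by symbol, and all of them had a row. The study compared 3 groups of 2 libraries each by RNA sequencing: control cells without treatment, cells given lipopolysaccharide (LPS) at 10 ng/ml, and cells given LPS at the same dose together with Sal-B at 50 μmol/L. LPS is a bacterial cell wall component that macrophages sense through Tlr4. No group received Sal-B alone, and the sources used here give neither a treatment time nor the full name of Sal-B. The libraries are numbered replicate 2 and replicate 3 in each group. The labels do not say that they came from separate cultures, so the p-values below measure only the spread between these libraries.

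Interleukin-6, leukaemia inhibitory factor (Lif) and oncostatin M (Osm) are secreted cytokines that act on target cells through gp130, the signalling chain encoded by Il6st. Interleukin-6 first binds its own receptor, encoded by Il6ra, and the other ligands use gp130 together with Lifr or Osmr. Engaged gp130 activates JAK kinases and the transcription factor STAT3, and STAT3 in turn raises Socs3, an inhibitor of the same signal. Macrophages are a known source of these ligands when they meet bacterial products.

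Expression was given by the authors as FPKM, a fragment count scaled by transcript length and by library size, so levels can be compared between genes within a library. Comparisons between libraries depend on how the libraries are scaled, and values after 2 other scalings are given where they change a result. The FPKM totals ran from 309767 to 374371 per library, with 8639 to 9847 genes at 1 FPKM or more. The number of reads per library is not known: at the best spacing found for the low values of single-transcript genes, 32.3% to 51.1% of them lay within 0.05 of a whole number, too few to recover reads. Of 10 macrophage markers 9 could be read, with summed levels of 1454 to 1927 FPKM in control, 1549 to 1551 with LPS and 713 to 725 with LPS plus Sal-B. Such a sum is set mostly by the most abundant markers. Taken singly, 1 of the 9 was called higher and 6 lower with LPS plus Sal-B against LPS. The lists for fibroblasts, T cells and epithelium were not analysed here, and of the B cell list Cd79b was read, at 0.305 to 1.43 FPKM. The log2 difference between replicates had an SD of 0.44 in control, 0.27 with LPS and 0.19 with LPS plus Sal-B.

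Il6 lies on chromosome 5 at 30013114 to 30019981, Osm and Lif on chromosome 11 at 4236420 to 4241026 and 4257557 to 4272514, and Il6st on chromosome 13 at 112464070 to 112510086, all on the plus strand of GRCm38. In GENCODE M21 no other gene overlaps any of these 4 loci. The promoter windows of Il6 and Lif are shown because both genes rose with LPS and parted when Sal-B was added. Each window runs from 250 bases before to 50 bases after the start of the gene (RefSeq, GRCm38.p6, plus strand), at chr5:30012864-30013163 for Il6 and chr11:4257318-4257617 for Lif. Capitals mark matches to the motifs of NF-kB, AP-1 and C/EBP that are spelled out after the sequences.
Il6: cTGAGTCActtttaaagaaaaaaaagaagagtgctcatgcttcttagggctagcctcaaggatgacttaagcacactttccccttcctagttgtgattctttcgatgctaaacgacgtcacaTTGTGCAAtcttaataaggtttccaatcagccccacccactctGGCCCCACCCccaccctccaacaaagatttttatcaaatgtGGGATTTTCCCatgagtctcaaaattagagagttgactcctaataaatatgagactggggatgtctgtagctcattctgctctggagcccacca
Lif: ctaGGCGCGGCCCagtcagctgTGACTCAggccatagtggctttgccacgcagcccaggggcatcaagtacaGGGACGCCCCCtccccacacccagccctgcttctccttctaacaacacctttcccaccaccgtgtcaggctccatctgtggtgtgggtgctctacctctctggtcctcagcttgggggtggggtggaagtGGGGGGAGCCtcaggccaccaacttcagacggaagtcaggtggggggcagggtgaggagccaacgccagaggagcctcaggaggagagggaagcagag

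Both strands were searched in 32851 promoter windows. The Il6 window held the stricter NF-kB form, GGGA and TTTCC with any 1 base between them, at bases 207 to 216, which 0.411% of all windows hold and the Lif window did not. The loose NF-kB form, GGG and CC with any 5 bases between them, present in 50.8% of windows, matched 3 times in Il6 and 5 times in Lif, and several of these matches overlap each other or the stricter form. An AP-1 motif, TGANTCA, stood at bases 2 to 8 of the Il6 window and at bases 23 to 29 of the Lif window, and 7.81% of windows hold one. The C/EBP form TTGCNNAA, held by 10.8% of windows, matched in Il6 at bases 123 to 130 and not in Lif. Neither window matched the STAT motif TTCNNNGAA (8.30% of windows) or the CRE motif TGACGTCA (1.79%). The Il6st window at chr13:112463820-112464119 matched the loose NF-kB form once and no other motif. No window was at hand for Osm, so the motifs cannot be set against the way the ligands parted with Sal-B. The matches describe letters only, and no binding was measured.

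The messenger RNAs of the ligands also carry copies of the pentamer ATTTA, the core of the AU-rich elements to which decay factors such as Zfp36 bind. The stretch of 30 bases with the most copies in each 3′ untranslated region is shown because cytokine mRNA is known to be destabilised through AU-rich elements. Each stretch was chosen by the count of the pentamer alone, and whether it acts as such an element was not tested. The transcripts are Il6-201, Lif-202 and Osm-201 of GENCODE M21, and capitals mark the pentamer.
Il6, bases 129 to 158: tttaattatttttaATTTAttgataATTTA
Lif, bases 3080 to 3109: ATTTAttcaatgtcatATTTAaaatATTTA
Osm, bases 930 to 959: aatccgttttatATTTAtaaggcctATTTA

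Il6 held 6 copies in a 3′ region of 427 bases, a number reached by 0.466% of 859 regions of similar length (within 20%). Osm held 6 in 1017 bases, reached by 3.66% of 1256 regions, and Lif held 7 in 3180 bases, reached by 36.0% of 961. Il6st held 9 in 5641 bases, reached by 53.7% of 322. These matches describe the letters only, and no measurement of mRNA decay was made.

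LPS raised the 3 ligand genes and lowered the receptor gene. Lif went from about 0.1 FPKM to the highest level in the family, Il6 went from values near 0 to about the level of Osm, and Osm rose from a low but measurable level. Il6st, which had been the most abundant of the 4 transcripts in control cells, fell below all 3 ligands.

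**Figure D1:**
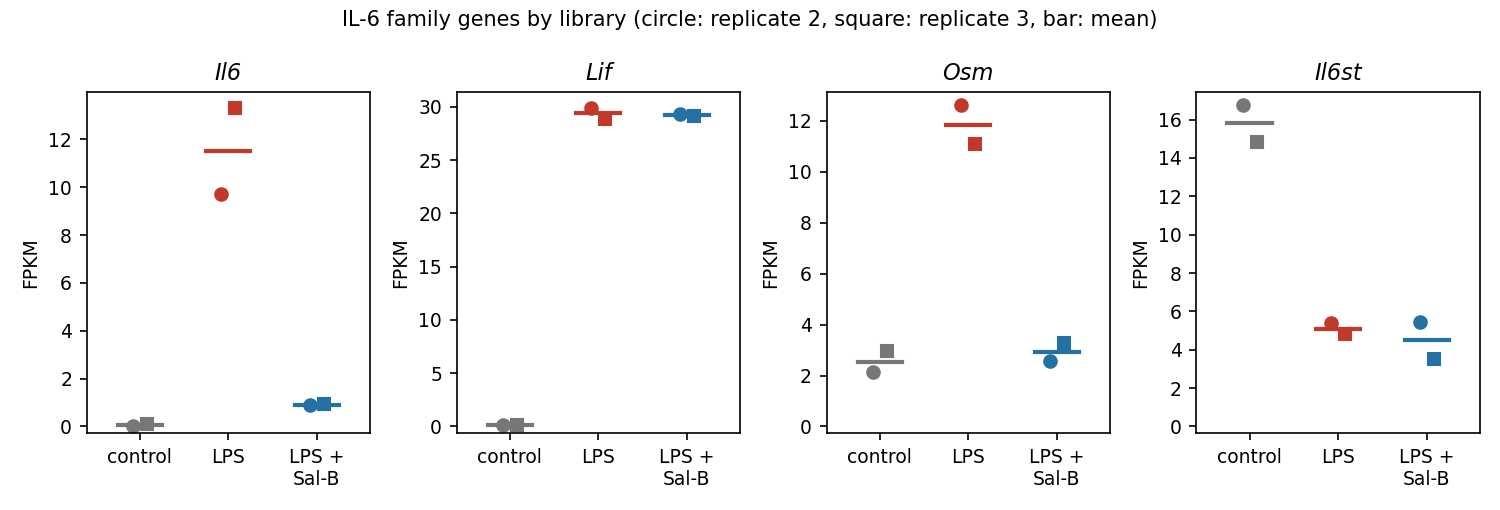
FPKM of Il6, Lif, Osm and Il6st in each of the 6 libraries, with a circle for replicate 2, a square for replicate 3 and a bar for the mean of the 2. Lif is as high with LPS plus Sal-B as with LPS, whereas Il6 at 0.910 and 0.921 FPKM and Osm at 2.56 and 3.26 lie below every LPS library.

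Lif read 0.136 and 0.103 FPKM in control, 29.9 and 28.9 after LPS, and 29.3 and 29.2 when Sal-B was added. The treated libraries were all far above control and overlapped with each other. Means were 0.120 ± 0.0233, 29.4 ± 0.721 and 29.3 ± 0.102 FPKM (SD, n = 2). The log2 fold change with LPS against control was 4.76 ± 0.09 (SE; limma on log2(FPKM + 1), Benjamini-Hochberg adjusted p = 1.29e-05), rank 20 among the rises of 10014 genes tested. The ratio of the FPKM means was 245, and it rests on control values near 0.1 FPKM, whose number of reads is not known.

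Il6 was listed at 0 and 0.123 FPKM in control, at 9.71 and 13.3 after LPS, and at 0.910 and 0.921 when Sal-B was added. The groups did not overlap, and the Sal-B libraries stood between control and LPS, much nearer to control. Against control the log2 fold change with LPS was 3.55 ± 0.16 (limma, adjusted p = 0.000147), rank 50 among the rises. Because a control library was at 0, its size depends on the added constant, and it was 6.26 with 0.1 FPKM in place of 1 (adjusted p = 0.000365). Il6 passed the filter of 1 FPKM in at least 2 libraries only through the LPS group, and Lif only through the 2 treated groups.

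Osm read 2.14 and 2.95 FPKM in control, 12.6 and 11.1 after LPS, and 2.56 and 3.26 when Sal-B was added. The LPS libraries stood apart, and the other two groups overlapped. The mean rose from 2.54 ± 0.575 to 11.8 ± 1.08 FPKM (SD, n = 2), a ratio of 4.66 and a log2 fold change of 1.87 ± 0.16 (limma, adjusted p = 0.000548).

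Il6st read 16.8 and 14.8 FPKM in control, 5.38 and 4.81 after LPS, and 5.44 and 3.54 when Sal-B was added. Both treated groups lay below control and overlapped with each other, and the Sal-B pair was the more spread of the 2. The control mean was 3.10 times the LPS mean, with a log2 fold change of −1.46 ± 0.19 (limma, adjusted p = 0.00161). Fewer cells with the transcript and less transcript per cell cannot be told apart in such bulk samples, here or for any gene below.

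These calls have to be read against how much of the transcriptome moved. With LPS 14.2% of all genes tested were called higher and 48.9% lower (adjusted p < 0.05), so a call in itself, above all a call of a fall, was common. The median log2 fold change over all genes was −0.40 as deposited and 0.01 after the libraries were scaled to the same median of expressed genes, where 2898 genes were called higher and 2649 lower in place of 1421 and 4898. Relative to the median of −0.40, Il6st stood at −1.06, Osm at 2.27, Il6 at 3.95 and Lif at 5.17. All 4 kept their direction and their call under that scaling and under quantile normalization, with Il6st at −0.996 and −1.08.

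**Figure D2:**
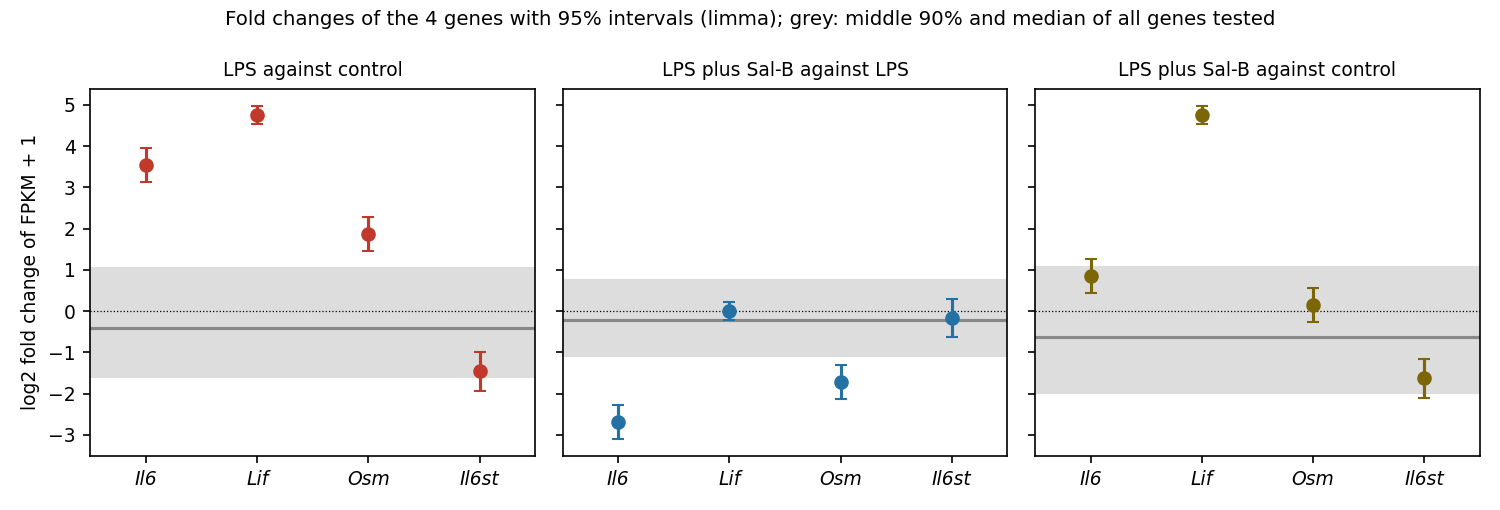
Log2 fold changes of FPKM + 1 for the 4 genes in each comparison, with 95% intervals from limma, over the middle 90% (grey band) and the median (grey line) of all 10014 genes tested. With LPS plus Sal-B against LPS, Il6 at −2.69 and Osm at −1.72 lie below the band, while the intervals of Lif and Il6st include 0.

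Addition of Sal-B to LPS parted the ligands. Il6 and Osm were far lower than with LPS alone. Lif stood at the same level in the deposited values, and no difference was called there or after either of the other scalings. The order of the family changed with it. With LPS it ran Lif, Osm, Il6 and Il6st, and the ranges of Osm and Il6 overlapped. With LPS plus Sal-B it ran Lif, Il6st, Osm and Il6, and no neighbours overlapped. In control it had been Il6st, Osm, Lif and Il6, and the ranges of Lif and Il6 overlapped.

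Il6 fell by 2.69 on the log2 scale with LPS plus Sal-B against LPS (SE 0.16; limma, adjusted p = 0.00136), the FPKM mean with LPS being 12.6 times that with Sal-B. Because Il6 with Sal-B was below 1 FPKM, the size depends on the added constant. It was −3.07 (SE 0.20) with 0.5 FPKM and −3.50 (SE 0.41) with 0.1 FPKM. Osm fell by 1.72 (SE 0.16; limma, adjusted p = 0.00214), with a ratio of 4.07. They held rank 14 and rank 78 among the falls of all genes, of which 31.8% were called lower and 10.5% higher (3184 and 1054 genes, or 2020 and 1766 at the same median). The macrophage markers moved as well, with 1 of 9 called higher and 6 lower in this comparison and 1 and 4 at the same median, and their part in these results was not tested. Lif differed by −0.01 ± 0.09 (95% interval −0.22 to 0.21; adjusted p = 0.960) and Il6st by −0.17 ± 0.19 (−0.64 to 0.30; adjusted p = 0.494). The interval of Lif leaves room for a small change in either direction, and its value turned to 0.24 under the same-median scaling and 0.23 under quantile normalization (adjusted p = 0.0699 and 0.0830). Il6st likewise turned to 0.03 under both scalings. The median over all genes in this comparison was −0.22 as deposited, and relative to it Il6 stood at −2.47, Osm at −1.50, Lif at 0.22 and Il6st at 0.05. The LPS libraries serve in this comparison and in the one against control, so the fall of Il6 or Osm is no independent repeat of its rise.

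As a share of the LPS increase in FPKM, 99.5% ± 0.350 of that of Lif was left with Sal-B. For Il6 the share was 7.46% ± 0.0656 and for Osm 3.94% ± 5.37. Each SD is over the 2 Sal-B libraries with the control and LPS means held fixed, so the spread of those groups is left out. The share of Il6 was 6.45% without LPS replicate 2 and 8.86% without LPS replicate 3. The share of Osm was −0.455% without control replicate 2, 7.96% without control replicate 3, and 7.73% or 0.141% when LPS plus Sal-B replicate 2 or 3 was left out. At equal medians the shares were 118% for Lif, 9.10% for Il6 and 16.5% for Osm. Within single libraries, log2((Il6 + 1)/(Lif + 1)) read −1.53 and −1.06 after LPS and −3.99 and −3.97 when Sal-B was added. The Il6 level thus was lower relative to Lif in both libraries, with a mean difference of −2.69. For Il6 against Osm the same quantity read −0.35 and 0.24 with LPS and −0.90 and −1.15 with Sal-B, a difference of −0.97. With 0.1 FPKM added in place of 1, the difference was −3.49 against Lif and −1.50 against Osm. In each case the exact two-sided permutation test gave p = 0.333, the smallest value that 2 against 2 libraries allow.

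Set against control cells, LPS plus Sal-B left Lif and Il6 higher and Il6st lower. The log2 fold change was 4.76 ± 0.09 for Lif (limma, adjusted p = 2.27e-05), 0.85 ± 0.16 for Il6 (adjusted p = 0.00494) and −1.63 ± 0.19 for Il6st (adjusted p = 0.000702). In this comparison 14% of all genes were called higher and 58.8% lower (1399 and 5890 genes, or 3180 and 3207 at the same median). With 0.1 FPKM as the added constant, the Il6 value was 2.77 (adjusted p = 0.00182). Osm stood at 0.15 ± 0.16 (95% interval −0.26 to 0.56; adjusted p = 0.453), and the call depended on scaling. It was 0.69 at the same median (adjusted p = 0.0122) and 0.83 under quantile normalization (adjusted p = 0.00601), where the median over all genes moved from −0.63 to −0.02 and −0.05.

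Osm and Lif are direct neighbours, both on the plus strand, with 16530 bases between them and no annotated gene in that gap. The neighbouring genes within 100 kb that were tested were chosen after values had been seen. Gatsl3 fell with LPS from 5.29 and 6.29 FPKM to 1.66 and 1.76 (log2 fold change −1.32 ± 0.13; limma, adjusted p = 0.000706) and stood at 2.12 and 1.71 with Sal-B added. Tbc1d10a and Rnf215 did not pass the test in the LPS comparison, at 0.14 ± 0.12 and −0.09 ± 0.10, but Tbc1d10a did so at the same median (0.42, adjusted p = 0.0314), and both did under quantile normalization, at 0.62 and 0.40. Sf3a1, a splicing factor gene, fell by 0.63 as deposited (SE 0.12; limma, adjusted p = 0.00591), but its value was −0.16 at the same median (adjusted p = 0.276) and −0.32 under quantile normalization (adjusted p = 0.0537).

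**Figure D3:**
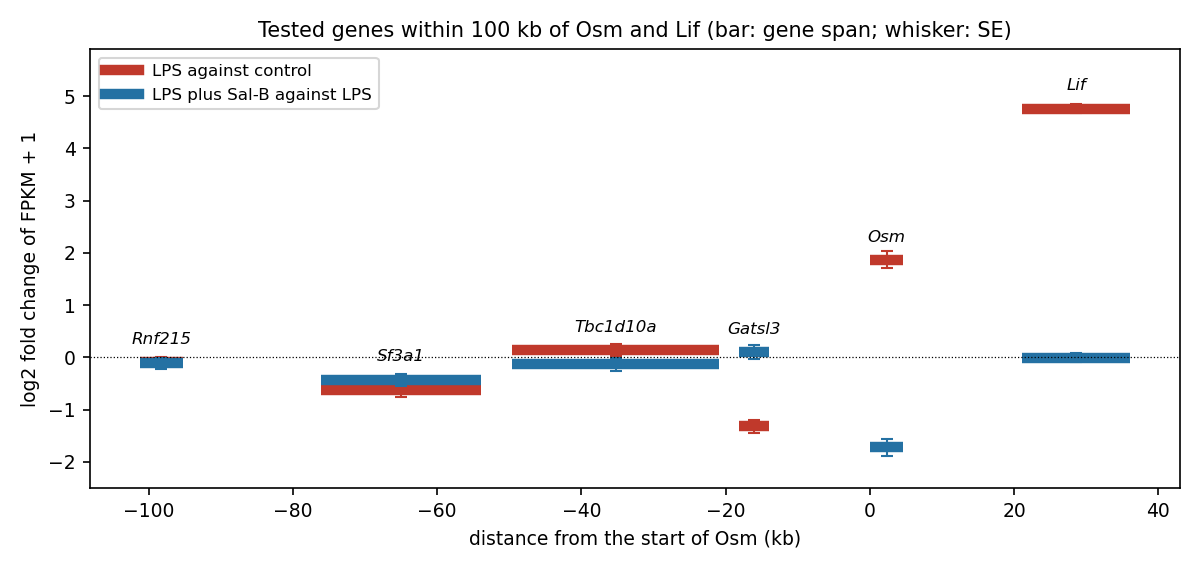
Log2 fold changes of FPKM + 1 for the genes tested within 100 kb of Osm and Lif, each drawn as a bar over its span, by distance from the start of Osm, with SE as whiskers. Lif at 4.76 and Osm at 1.87 rise with LPS, and with Sal-B Osm at −1.72 falls while Lif stays at −0.01.

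The other ligands of the family followed LPS too. Of 9 ligand genes listed 6 could be tested, the 3 above among them; Il11, Ctf1 and Clcf1 were not analysed here. All 6 were called higher with LPS, where 14.2% of all genes were. Their median log2 fold change was 2.71 against −0.40 over all genes. Il6 passed the filter of 1 FPKM only through the LPS libraries, and Lif and Il27 only through treated libraries. The count and the median are thus partly set by how these genes entered the test. The 6 kept this call after both scalings, but calls of a rise were then more common. Same-median scaling gave 2898 of 10014 genes called higher and quantile normalization 2413, in place of 1421 as deposited. With Sal-B against LPS 5 of the 6 were called lower, or 4 of 6 after either scaling, with a median of −0.94, where 31.8% of all genes were called lower and the median over all genes was −0.22. Il27, one chain of interleukin-27, read 0.377 and 0.818 FPKM in control, 63.3 and 62.5 with LPS and 31.4 and 31.2 with Sal-B. Its log2 fold change was 5.34 ± 0.15 with LPS (limma, adjusted p = 3.98e-05) and −0.98 ± 0.15 with Sal-B against LPS (adjusted p = 0.00573, but 0.0547 and 0.0507 when LPS plus Sal-B replicate 2 or 3 was left out). Ebi3, the partner chain of interleukin-27, rose from 39.2 ± 1.18 to 117 ± 4.33 FPKM (SD, n = 2; log2 fold change 1.55 ± 0.08). Ebi3 stood at 86.9 ± 1.27 FPKM with Sal-B (−0.42 ± 0.08 against LPS, adjusted p = 0.0111), a call that was lost after either scaling and without any 1 of these 4 libraries. Cntf, a factor for nerve cell survival, read 1.44 and 1.68 FPKM in control, 3.56 and 2.44 with LPS and 1.13 and 1.14 with Sal-B. Its calls (0.63 ± 0.16 and −0.89 ± 0.16; adjusted p = 0.0166 and 0.00931) were lost without 1 library: that with LPS without control replicate 2 or LPS replicate 2 (adjusted p = 0.0507 and 0.0554), that with Sal-B without LPS plus Sal-B replicate 2 or 3 (adjusted p = 0.0718 and 0.0664). The values of Cntf are uncertain, since Zfp91 overlaps it on the same strand.

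The 2 receptor chains that could be tested moved the other way with LPS. Of 8 receptor chains listed 2 were tested, Il6st and Il6ra. Both were called lower, as also after both scalings, where 48.9% of all genes were called lower as deposited. Lifr, Osmr and Cntfr were not analysed here. Il6ra, which binds interleukin-6, read 6.01 and 5.77 FPKM in control, 0.730 and 1.06 with LPS and 1.00 and 0.973 with Sal-B. Its log2 fold change was −1.87 ± 0.12 with LPS (limma, adjusted p = 0.000299) and 0.07 ± 0.12 with Sal-B against LPS (adjusted p = 0.652). Il11ra1 and Il27ra, both below the filter and not tested, read higher with LPS than in control. Il11ra1 read 0.434 and 0.371 FPKM in control, 0.662 and 0.641 with LPS and 0.614 and 0.461 with Sal-B. Il27ra read 0.0321 and 0 FPKM in control, 0.151 and 0.204 with LPS and 0.600 and 0.755 with Sal-B. Of the proteases that shed the interleukin-6 receptor, Adam10 fell with LPS from 84.1 ± 7.26 to 16.3 ± 0.557 FPKM (log2 fold change −2.30 ± 0.11; limma, adjusted p = 0.000154). It fell further to 2.65 ± 0.282 FPKM with Sal-B (−2.24 ± 0.11; limma, adjusted p = 0.000971). Adam17 fell by 1.11 with LPS (adjusted p = 0.00848, and 0.0517 at the same median), and Rhbdf2, which carries Adam17 to the cell surface, rose by 1.25 ± 0.10.

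Counts of calls among the signal transducers were near those of all genes with LPS. Of 8 JAK, STAT and adaptor genes tested 1 was called higher and 5 lower, where 14.2% of all genes were called higher and 48.9% lower, and after same-median scaling 2 were higher and 2 lower. Stat3, the main effector of gp130, read 6.50 and 7.58 FPKM in control, 6.09 and 6.12 with LPS and 10.3 and 10.8 with Sal-B. Its log2 fold change was −0.18 ± 0.11 with LPS (adjusted p = 0.195; 0.26 at the same median) and 0.70 ± 0.11 with Sal-B against LPS (limma, adjusted p = 0.00600, but 0.0586 and 0.0619 when LPS plus Sal-B replicate 2 or 3 was left out). The transcript level says nothing of how much of the protein was active. With LPS Shc1, an adaptor of receptor signalling, fell by 1.06 (SE 0.09) and Tyk2, a JAK kinase, fell by 0.84 (SE 0.09). Jak1 fell by 0.48 as deposited (SE 0.08), a change that vanished at the same median (0.01, adjusted p = 0.935). With Sal-B against LPS 2 of the 8 were called higher and 2 lower, or 4 and 1 at the same median, where 10.5% of all genes were called higher and 31.8% lower as deposited. Jak2 fell by 0.65 (SE 0.10; limma, adjusted p = 0.00584, but 0.0670 and 0.0529 when LPS plus Sal-B replicate 2 or 3 was left out). The calls of Jak1 (−0.40 ± 0.08, adjusted p = 0.0154) and of the adaptor Grb2 (0.35 ± 0.09, adjusted p = 0.0313) were lost without any 1 LPS or Sal-B library. That of Jak1 was lost after either scaling too. It was −0.169 at the same median (limma, adjusted p = 0.173) and −0.175 under quantile normalization (adjusted p = 0.255).

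Of 6 inhibitors of gp130 signalling tested 2 were called higher and 3 lower with LPS, the latter near the 48.9% of all genes called lower (14.2% higher). With Sal-B against LPS 1 was called higher and 2 lower, near the 10.5% and 31.8% of all genes. Socs3, the feedback inhibitor that binds gp130, read 5.64 and 5.14 FPKM in control, 18.2 and 17.5 with LPS and 10.1 and 10.98 with Sal-B. It rose by 1.56 ± 0.10 with LPS (limma, adjusted p = 0.000290) and fell by 0.71 with Sal-B (SE 0.10; adjusted p = 0.00473, and 0.0594 without LPS plus Sal-B replicate 2). Cish, which also passed the filter only through treated libraries, rose by 0.86 ± 0.13 with LPS. Ptpn2, a phosphatase of JAK and STAT proteins, fell by 0.78 with LPS (SE 0.10) and by a further 0.76 with Sal-B (SE 0.10; adjusted p = 0.00402). Pias1 fell by 0.97 with LPS (SE 0.13). Pias1 stood at 13.4 ± 0.533 FPKM with Sal-B against 8.77 ± 0.383 with LPS (0.56 ± 0.13, adjusted p = 0.0222), and that call was lost without any 1 of these 4 libraries.

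**Figure D4:**
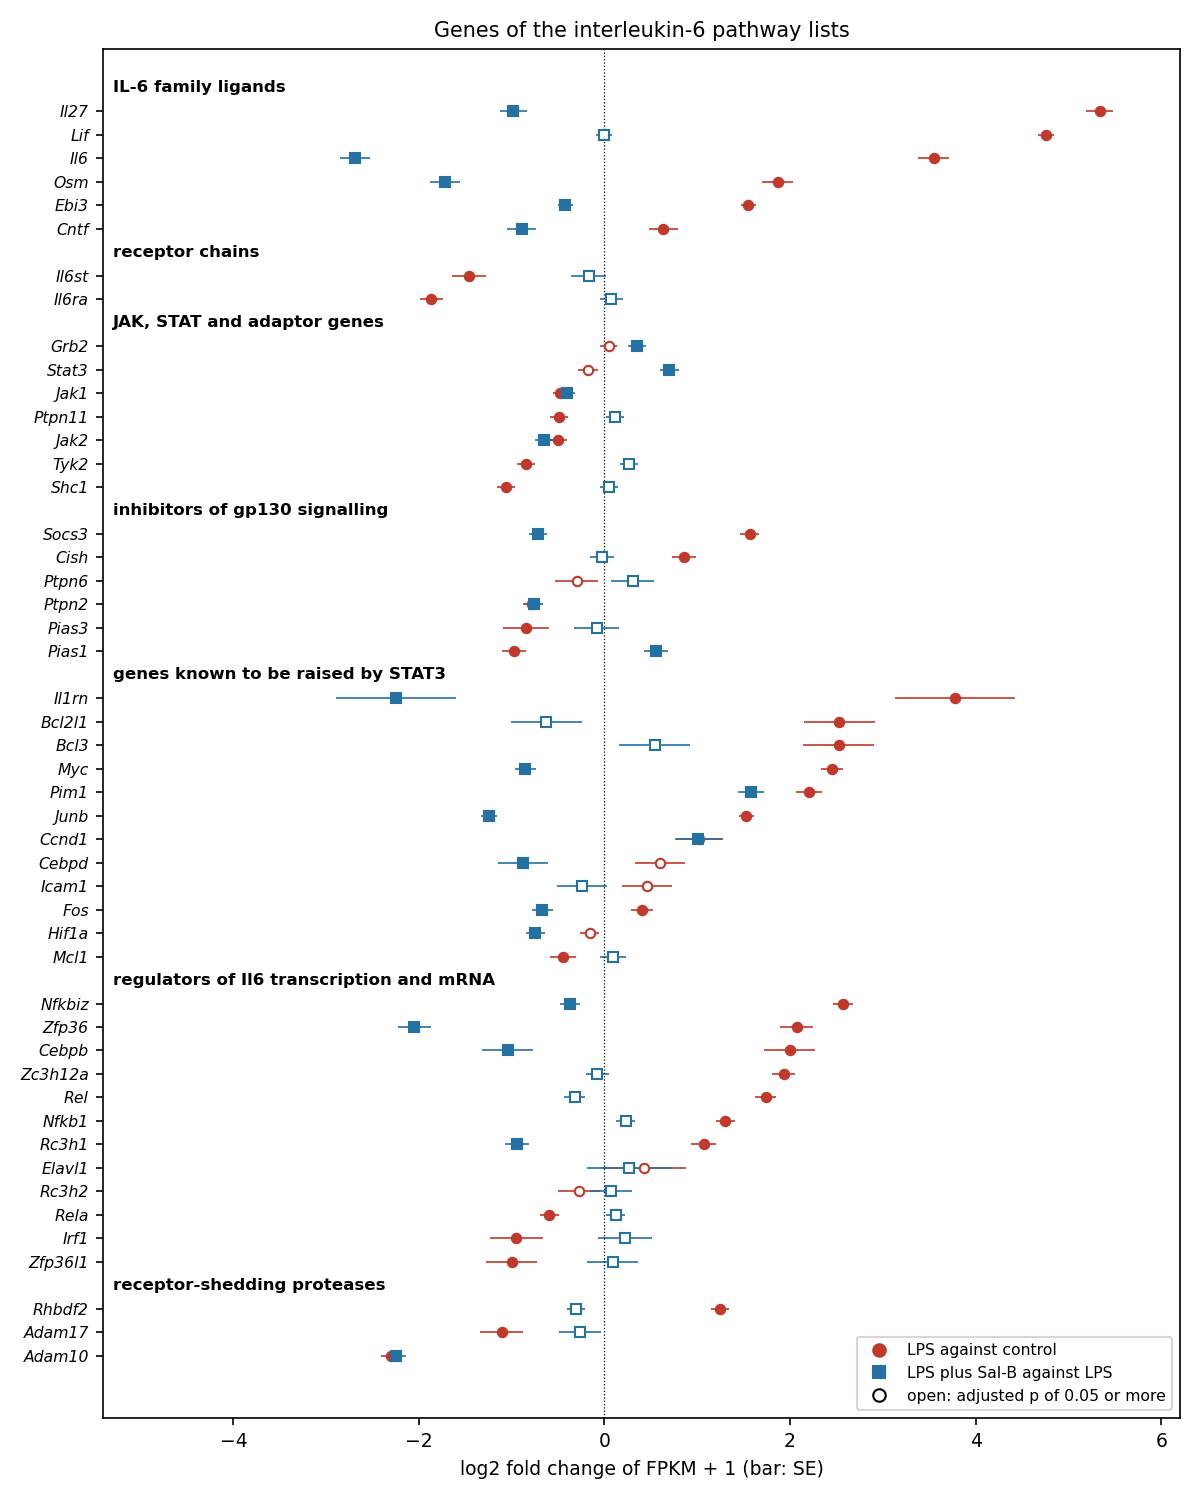
Log2 fold changes of FPKM + 1 with SE for genes tested in 7 pathway lists, with LPS against control as circles and LPS plus Sal-B against LPS as squares; open marks did not reach adjusted p < 0.05. All 6 ligands lie to the right with LPS, while Il6st at −1.46 and Il6ra at −1.87 lie to the left.

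Of 12 genes known to be raised by STAT3, 8 were called higher and 1 lower with LPS, against 14.2% and 48.9% of all genes, with a median log2 fold change of 1.28. At the same median 11 were higher and 0 lower, and under quantile normalization 9 and 1. With Sal-B against LPS 2 were higher and 6 lower, against 10.5% and 31.8% of all genes, or 2 and 4 at the same median and 2 and 3 under quantile normalization. Many of them also answer LPS through other factors. Junb read 10.6 and 10.4 FPKM in control, 33.1 and 31.1 with LPS and 12.9 and 13.0 with Sal-B (−1.25 ± 0.09 against LPS; limma, adjusted p = 0.00145). Myc, which passed the filter only through treated libraries, rose by 2.45 ± 0.11 and then fell by 0.86 (SE 0.11). Pim1, a survival kinase, went the other way with Sal-B: it read 13.8 and 10.3 FPKM in control, 57.8 and 59.3 with LPS and 178 and 177 with Sal-B (1.58 ± 0.14 against LPS; limma, adjusted p = 0.00202). Bcl2l1, which opposes cell death, rose by 2.53 ± 0.38 with LPS. It read 29.0 and 52.4 FPKM in the LPS libraries against 24.4 and 25.4 with Sal-B. That difference was not called (−0.63 ± 0.38, limma, adjusted p = 0.234). Hif1a fell by 0.75 with Sal-B (SE 0.10; adjusted p = 0.00491), but not under quantile normalization (adjusted p = 0.0681) or without LPS plus Sal-B replicate 2 (adjusted p = 0.0548). The values of Hif1a are uncertain too, since Gm49321 overlaps it on the same strand.

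Of 13 regulators of Il6 transcription and mRNA, 7 were called higher and 3 lower with LPS, against 14.2% and 48.9% of all genes, or 8 and 0 at the same median and 8 and 2 under quantile normalization. With Sal-B against LPS 0 were higher and 5 lower, near the 31.8% of all genes called lower (10.5% higher), and 2 and 2 after either scaling. Nfkbiz, a cofactor needed for Il6 transcription, rose from 5.66 ± 0.709 to 38.6 ± 2.24 FPKM (2.57 ± 0.11; limma, adjusted p = 0.000133). With Sal-B it stood at 29.5 ± 0.421 FPKM (−0.38 ± 0.11, adjusted p = 0.0399), a call that was lost after either scaling and without any 1 LPS or Sal-B library. Rel and Nfkb1, NF-kB subunits, rose by 1.74 ± 0.11 and 1.30 ± 0.10 with LPS. Zc3h12a, an endonuclease that cuts Il6 mRNA, rose from 2.13 ± 0.402 to 10.9 ± 0.482 FPKM and stood at 10.3 ± 0.439 with Sal-B. Zfp36, the decay factor of AU-rich mRNAs, read 14.2 and 20.8 FPKM in control, 72.4 and 78.5 with LPS and 16.8 and 18.1 with Sal-B. It fell by 2.05 with Sal-B against LPS (SE 0.18; limma, adjusted p = 0.00203), as Il6 and Osm did. Rc3h1, a repressor that binds stem-loops in cytokine mRNA, fell by 0.94 (SE 0.13; adjusted p = 0.00480, and 0.0524 without LPS plus Sal-B replicate 2). Cebpb stood at 58.5 ± 1.74 FPKM with Sal-B against 122 ± 3.90 with LPS (−1.04 ± 0.27, adjusted p = 0.0296), and this call was lost after either scaling and without any 1 LPS or Sal-B library.

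Across the 7 lists 49 of 64 genes were tested. With LPS 25 were called higher and 16 lower, where 14.2% and 48.9% of all genes were, and 29 and 7 at the same median. With Sal-B against LPS 5 were higher, near the 10.5% of all genes, and 20 lower, where 31.8% of all genes were, and 9 and 14 at the same median. The total of 25 was 16 without LPS replicate 2. It was 8 or 11 when LPS plus Sal-B replicate 2 or 3 was left out. A number of these genes have another annotated gene across them, on the opposite strand (Apobr at Il27, Stat5a at Stat3, Prdx2 at Junb) or on the same strand (Galt at Il11ra1, besides those named), and whether counting used the strand is not given in the sources used here.

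The genes most like each of the 4 in pattern were found by the root mean square difference of log2(FPKM + 1) over the 6 libraries, after each gene was centred on its mean. Il6 was nearest to Il1f6, a cytokine of the interleukin-1 family, at 0.23. Il1f6 was listed at 0 in both control libraries and read 14.4 and 17.3 FPKM with LPS and 1.13 and 1.31 with Sal-B. The next were Ccl12, a chemokine that draws monocytes, at 0.30, Hamp, which encodes the iron hormone hepcidin, at 0.32, and AA467197 at 0.36. Lif was nearest to Mmp9, a secreted gelatinase, at 0.03. Mmp9 read 0.787 and 0.842 FPKM in control, 50.7 and 48.9 with LPS and 47.9 and 49.4 with Sal-B. Phlda1 at 0.31 and the growth factor gene Hbegf at 0.36 followed. Osm was nearest to Wfdc18 at 0.14, and Zfp36 came next at 0.17, before Rtp4 and Phf11b, both at 0.20. Il6st was nearest to Mbp, the myelin basic protein gene, at 0.13, with Zbtb8a, Dsn1 and Nudt12 at almost the same distance. Mbp read 15.5 and 15.1 FPKM in control, 4.98 and 4.69 with LPS and 4.21 and 3.85 with Sal-B.

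**Figure D5:**
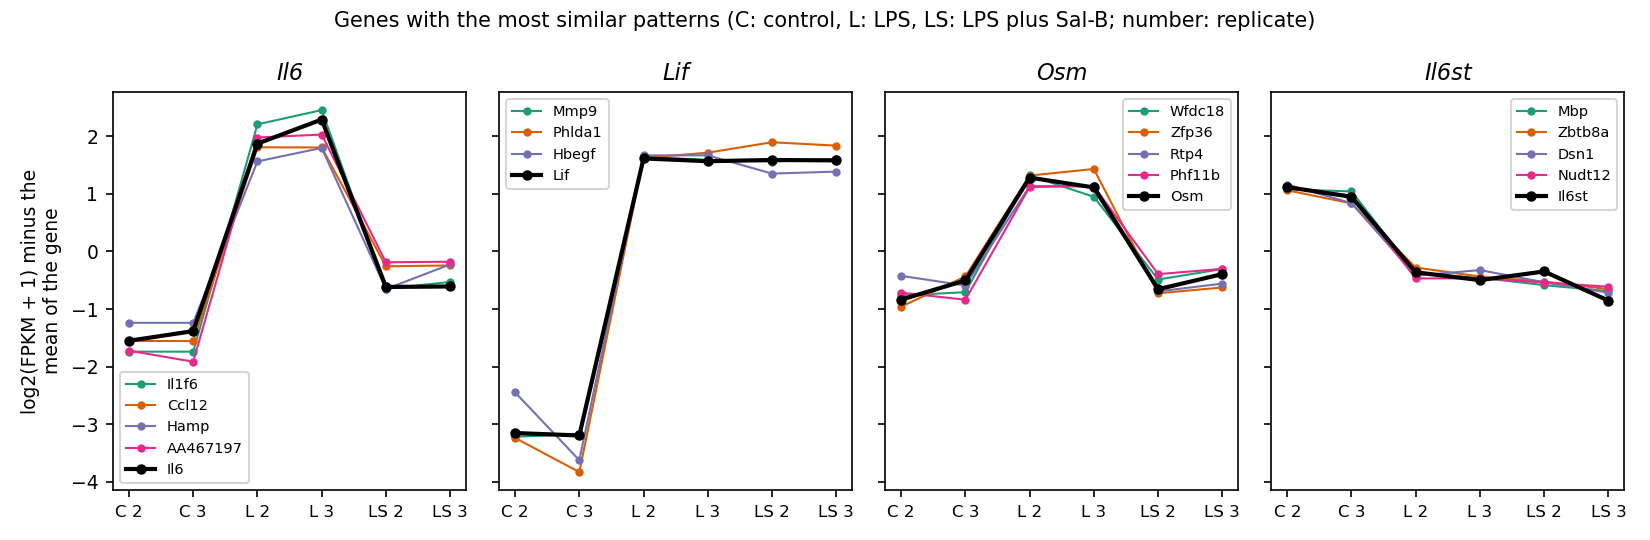
Log2(FPKM + 1) minus the mean of each gene in the 6 libraries, for each of Il6, Lif, Osm and Il6st (black) and the genes nearest to it (up to 4). Lif and Mmp9 lie almost on each other, at a root mean square difference of 0.03, while the nearest gene to Il6 differs by 0.23.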

How the data were processed

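RNA of 6 libraries of RAW264.7 cells was sequenced on an Illumina HiSeq instrument after poly(A) selection or rRNA removal, per the labels' protocols. The FPKM values were used as the authors deposited them. The submitters' processing notes name cutadapt, HISAT2 2.0.5, StringTie and GRCm38, with no order or settings. The table held 10780 protein-coding genes and, from its values, no gene below 0.5 FPKM in its highest group mean. No scaling between libraries is stated, and 1 line was empty.

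Values were taken as log2(FPKM + 1), and 2 libraries at 1 FPKM or above were asked of a gene, which left 10014. One model of the 3 groups over all 6 libraries was fitted by limma 3.58.1 (R 4.3.3) with trended empirical Bayes moderation and 3 residual degrees of freedom. Tests were two-sided, with Benjamini-Hochberg adjusted p < 0.05 over all genes. Fold changes on this scale understate the ratio of low genes. The script was tested on simulated data. The 4 members, 7 pathway lists, 5 marker lists and the alternatives were chosen with earlier results of these data known. Named were the 4 members, the ligands and receptor chains, up to 4 called genes of each list with the smallest p in either of the first 2 comparisons, and the 4 nearest patterns of each member; Stat3 in the LPS comparison, Rnf215, Tbc1d10a, Gatsl3 and Sf3a1 were named after their values were seen. Some genes of the lists and patterns are not reported here. Averaging the Sal-B pair was an alternative added after seeing the data. Transcripts came from GENCODE M21, whose coordinates equal those of the table for the 4 members, and promoters from RefSeq for 3 of the 4 (Il6, Lif, Il6st).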

Additional observations from a re-analysis of the deposited data

How the results depend on the processing

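Depth is not known, so low values such as those of Il6 and Lif in control carry an error that cannot be stated. The rises of Il6, Lif and Osm with LPS, the falls of Il6 and Osm with Sal-B against LPS and the fall of Il6st in both comparisons with control kept their direction and call in every alternative run: other pseudocounts, filters and scalings, no trend, the 2 groups compared alone, the replicate block, the Sal-B pair averaged, and each library left out. Without 1 library the log2 fold change with Sal-B against LPS ran from −2.90 to −2.48 for Il6 and from −1.85 to −1.59 for Osm.

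Values that were not called changed sign. For LPS plus Sal-B against LPS, Lif was 0.24 under same-median scaling and 0.23 under quantile normalization, and −0.0305 to 0.0179 without 1 library. Il6st was 0.03 under both scalings (0.0350 and 0.0323), and −0.42 to 0.0821 without 1 library. Osm in LPS plus Sal-B against control was 0.69 and 0.83 under the scalings, now past the threshold, and −0.0208 to 0.31 without 1 library. The cause was not tested.

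For LPS plus Sal-B against LPS, the pathway genes called numbered 25, 9 with the Sal-B pair averaged and 8 to 33 without 1 library, and over all genes 4238, 1094 and 1043 to 6245. Both counts rose without a control library and fell without an LPS or Sal-B library, and the cause was not tested. The share of the LPS increase left was 9.10% and 11.02% for Il6, 118% under both scalings for Lif (118.4% and 118.3%) and 16.5% and 20.2% for Osm under same-median scaling and quantile normalization, and 6.45% to 8.86% for Il6 and 97.8% to 101% for Lif without 1 library. Among the runs without 1 library the share of Osm moved most, from −0.455% without control replicate 2 to 7.96% without control replicate 3. It was 0.141% without LPS plus Sal-B replicate 3.

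Libraries of the same number shared almost no deviation: the differences between replicate 3 and replicate 2 correlated over genes at 0.004 to 0.035 between groups. These values cannot show whether libraries of the same number were prepared as pairs. With the replicate block the fold change of Il6 with Sal-B against LPS was −2.69 (adjusted p = 0.00471) and all calls of the 4 genes held. The pathway genes called were then 41, 22 and 37 against 41, 25 and 36 without it, in the order LPS against control, Sal-B with LPS against LPS, and Sal-B with LPS against control.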
